A study of Mus musculus with 39 samples.

Results

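The VEGF ligands, receptors and neuropilins were followed across 9 groups of mouse brain endothelial libraries. The members were 9 genes chosen by symbol, namely Vegfa, Vegfb, Vegfc, Pgf, Flt1, Kdr, Flt4, Nrp1 and Nrp2, of 24946 genes that every table held. Each library was messenger RNA from brain cells of C57BL/6 pups, pulled out with beads that carried an antibody to PECAM, an endothelial surface protein. The Smad4 mutants had genotype Smad4f/f; Cdh5-CreERT2 and their wild types Smad4f/f, both taken on postnatal day 7 (5 libraries each). The Alk1 mutants had genotype Alk1f/f; Cdh5-CreERT2 and their wild types Alk1f/f, both taken on day 6 (5 each). The Eng mutants had genotype Engf/f; Cdh5-CreERT2 and their wild types Engf/f, both taken on day 7 (5 each). The antibody cohort held Smad4f/f; Cdh5-CreERT2 pups given LC10, an inhibitor of angiopoietin-2, the same genotype given control IgG, and Smad4f/f pups given control IgG, all taken on day 7 (3 each). Every pup carried floxed alleles and received tamoxifen, so the controls lacked only the Cre. The tamoxifen dose was 300 µg on each of days 1 to 3, and for Alk1 pups and their controls 100 µg on day 4. Antibody doses were 30 µg on days 2 and 4. The Cre is driven by the promoter of Cdh5, an endothelial junction gene, and labels do not say which libraries came from separate pups, so the spread between libraries may be technical in part. The Alk1 cohort differs from the others in age and in the dose and day of tamoxifen, and these cannot be told apart from the gene deleted.

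VEGF ligands are secreted dimers that bind receptor tyrosine kinases on endothelial cells. VEGF-A (Vegfa) binds VEGFR1 (Flt1) and VEGFR2 (Kdr), and VEGFR2 carries most of its signal for growth, migration and permeability. VEGFR1 binds VEGF-A tightly, signals weakly and also exists as a secreted decoy, while VEGF-B (Vegfb) and placental growth factor (Pgf) bind it and not VEGFR2. VEGF-C (Vegfc) acts on VEGFR3 (Flt4), a receptor of lymphatic vessels and of sprouting blood vessels, and neuropilins (Nrp1, Nrp2) are co-receptors that also bind class 3 semaphorins. Smad4, Alk1 (gene symbol Acvrl1) and Eng act in BMP signalling of endothelial cells, and mutations in them cause the vessel malformations of hereditary haemorrhagic telangiectasia.

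The 250 bases before the start are shown for Vegfa (the upstream one of 2 starts) and Vegfc, which moved in opposite directions in the Alk1 cohort, and for Kdr, which fell with Vegfc there. The windows lie outside annotated exons except for 3 bases of the Kdr window. The sequences are from RefSeq (GRCm38.p6) and read 5′ to 3′ towards the start. Capitals mark matches, on either strand, to the HIF core letters ACGTG or GCGTG and to the GC-rich letters GGCGCC or GGAGCC bound by SMADs of the BMP branch.
Vegfa, chr17:46032378-46032627, minus strand: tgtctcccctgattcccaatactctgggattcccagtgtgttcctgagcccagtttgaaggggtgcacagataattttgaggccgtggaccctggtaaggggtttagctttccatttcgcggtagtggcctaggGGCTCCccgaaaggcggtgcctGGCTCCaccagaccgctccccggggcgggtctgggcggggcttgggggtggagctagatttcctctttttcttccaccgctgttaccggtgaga
Vegfc, chr8:54077282-54077531, plus strand: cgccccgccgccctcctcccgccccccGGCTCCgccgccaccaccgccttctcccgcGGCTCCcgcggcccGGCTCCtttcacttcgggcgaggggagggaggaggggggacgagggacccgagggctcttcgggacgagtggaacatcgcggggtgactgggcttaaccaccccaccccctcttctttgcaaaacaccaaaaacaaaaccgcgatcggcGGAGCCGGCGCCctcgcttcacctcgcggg
Kdr, chr5:75978456-75978705, minus strand: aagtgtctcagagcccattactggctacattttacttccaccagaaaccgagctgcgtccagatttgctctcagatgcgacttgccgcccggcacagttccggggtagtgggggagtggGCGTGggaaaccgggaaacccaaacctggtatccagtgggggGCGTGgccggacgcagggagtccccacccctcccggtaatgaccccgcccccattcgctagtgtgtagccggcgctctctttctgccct
The Vegfa window held 2 matches to GGAGCC, whose first bases lie 116 and 94 bases before the start, and the Vegfc window held 4 matches to GGAGCC and 1 to GGCGCC, of which GGAGCC at 30 and GGCGCC at 24 bases before the start adjoin without overlap. RefSeq lists another start of Vegfa, whose window (chr17:46025164-46025413, with 218 of 250 bases in annotated exons) is not printed. It held 1 match to ACGTG, at 211 bases before that start, and 1 to GCGTG, at 218, where the Vegfa window shown held neither. The Kdr window held 2 matches to GCGTG, at 131 and 89 bases before the start. Of 32851 promoters of the same length, 16.6% held ACGTG, 28.2% GCGTG, 9.6% GGCGCC and 26.0% GGAGCC. The matches are letters only and do not show binding.

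Levels are the authors' normalized values per gene, a signal with no stated unit, and fold changes are mutant over wild type on log2 of the value plus 2. The targeted gene was measured in every library. Smad4 was 1676 to 1916 in Smad4 mutants against 5258 to 5903 in their wild types, and Eng was 8613 to 11510 in Eng mutants against 60150 to 70400. In the IgG libraries Smad4 was 1817 to 3030 in mutants against 5625 to 5975 in wild types. Acvrl1 did not separate the Alk1 groups, at 12440 to 15810 in libraries labelled mutant against 14200 to 16760 in wild types (log2 fold change -0.12 ± 0.08, adjusted p = 0.279 by limma). The value covers the whole gene and the sources used here do not name the deleted exons, so it does not check the Alk1 labels. Value sums per library ran from 25.44M to 42.74M, with 16105 to 17683 genes above 0. All 8 endothelial markers were present in every group, and their summed values overlapped between mutants and wild types in each untreated cohort (in the IgG libraries they were 312700 to 315600 in mutants against 279300 to 305200 in wild types). Of the 8, 2 were called higher and 1 lower in Smad4 mutants, 3 higher in Alk1 mutants, 3 lower in Eng mutants, and 1 higher and 1 lower in IgG mutants. Markers of other cells were also present. Erythroid markers were called lower in mutants for 3 of 4 tested in the Smad4, 4 of 4 in the Alk1 and 3 of 5 in the Eng cohort. In the Smad4 cohort 5 of 5 choroid plexus, 6 of 8 neuron and 5 of 8 pericyte markers were called lower in mutants. So were 4 of 7 oligodendrocyte lineage, 3 of 4 smooth muscle, 2 of 5 fibroblast and 2 of 8 astrocyte markers. In the Alk1 cohort 3 of 4 smooth muscle, 2 of 8 pericyte and 2 of 7 neuron markers were called lower. There 2 of 4 lymphatic endothelial markers were called higher. In the IgG cohort 4 of 6 microglia, 4 of 8 pericyte and 3 of 5 fibroblast markers were called lower, among others. Fewer such cells cannot be told apart from less RNA per cell.

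Per kilobase of merged exons, Kdr had the highest level of the 9 genes in every group and Flt1 came next. In Smad4 wild types Kdr averaged 10620 ± 539 per kilobase, Flt1 5022 ± 350, Nrp1 1785 ± 132, Flt4 1330 ± 96, Nrp2 970 ± 61 and Vegfc 826 ± 66 (SD, n = 5). The other ligands were far lower, with Vegfb at 201 ± 19, Vegfa at 125 ± 42 and Pgf at 26.7 ± 6.0. Vegfc was the ligand with the highest level in each wild-type group, and its SD bars overlapped those of Nrp2 in Alk1, Eng and IgG wild types. Pgf ranked 9 of 9 in all wild-type groups and in Eng mutants, 6 in Alk1 mutants and 7 in Smad4, IgG and LC10 mutants. Vegfa had rank 9 in the Smad4, Alk1, IgG and LC10 mutants. In Alk1 mutants Pgf and Vegfc were level, at 350 ± 81 and 348 ± 69 per kilobase, and the bars of Vegfa and Vegfb overlapped. Length hides isoforms, since Flt1, Kdr and Nrp1 have short secreted forms whose reads these values do not separate.

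**Figure D1:**
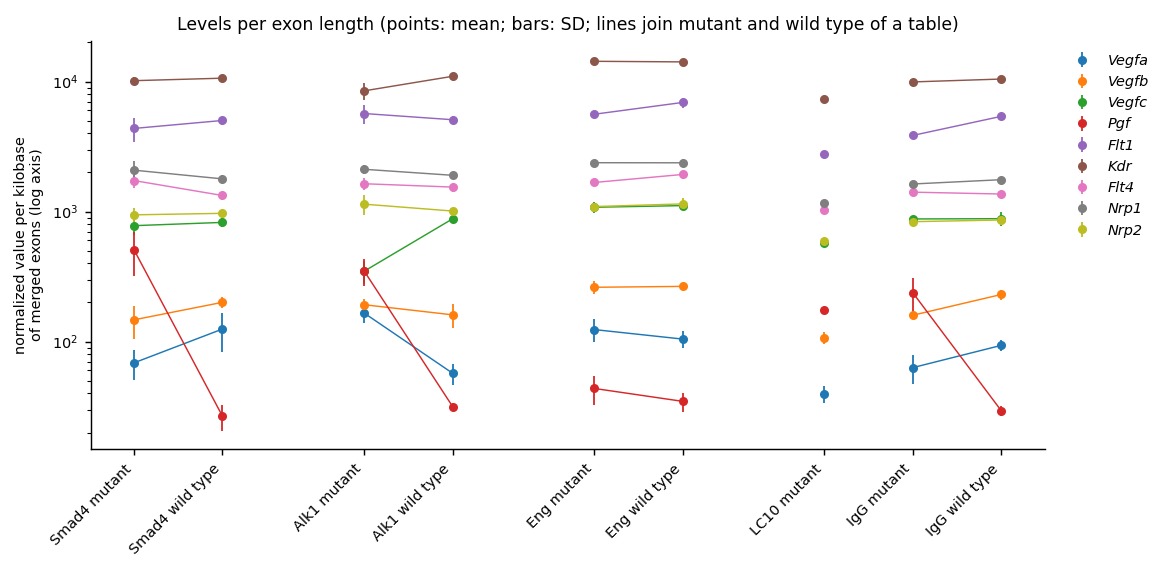
Mean normalized value per kilobase of merged exons (log axis) for the 9 genes in each group, with SD bars (n = 5, or 3 in the antibody cohort). Pgf is the lowest in each wild-type group and in Eng mutants and passes Vegfa and Vegfb in the Smad4, Alk1, IgG and LC10 mutants. LC10 is drawn on the scale of its own table.

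All 9 genes passed the filter on low values in every comparison. In Smad4 mutants 4 of 9 passed the adjusted threshold of 0.05 by limma, with Pgf and Flt4 higher and Vegfa and Vegfb lower, beside 33.0% of all genes tested. In Alk1 mutants 4 of 9 were called, with Pgf and Vegfa higher and Vegfc and Kdr lower, beside 33.2% of all genes. In Eng mutants 2 of 9 were called, with Flt1 and Flt4 lower, beside 21.5% of all genes. In IgG mutants 3 of 9 were called, with Pgf higher and Flt1 and Vegfb lower, beside 17.8% of all genes. Nrp1 and Nrp2 were called in none of these 4 fits, though quantile normalization, an alternative scaling, called Nrp1 lower in IgG mutants. Members whose groups did not overlap numbered 2 in Smad4, 4 in Alk1, 1 in Eng and 5 in IgG mutants, beside 22.8%, 24.5%, 16.5% and 41.0% of all genes. With 9 genes these shares are not read as setting the family apart. The median log2 fold change of the 9 genes was -0.06, 0.15, -0.03 and -0.07 in the Smad4, Alk1, Eng and IgG cohorts, against -0.01, -0.01, -0.01 and 0.00 over all genes.

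**Figure D2:**
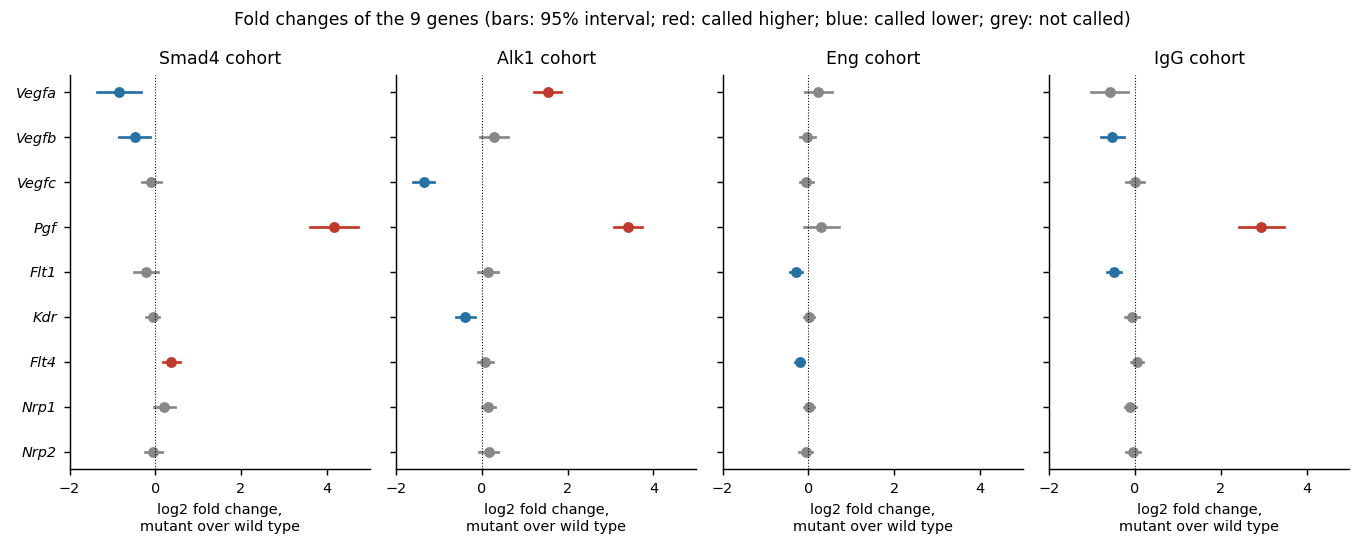
Log2 fold change of each gene, mutant over wild type, in the 4 cohorts, with 95% intervals from limma. Red marks a gene called higher, blue one called lower and grey one not called. Pgf lies at 4.16 in the Smad4, 3.41 in the Alk1 and 2.94 in the IgG cohort and at 0.31 in the Eng cohort.

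Pgf encodes placental growth factor, a ligand of VEGFR1 (chr12:85166635-85177790, minus strand). It rose in Smad4 and Alk1 mutants and showed no called change in Eng mutants. Its values were 879, 1370, 1034, 2061 and 2049 in Smad4 mutants, against 87.1, 98.9, 67.3, 80.4 and 54.1 in wild types. The lowest mutant stood well above the highest wild type. The log2 fold change was 4.16 ± 0.25 (SE; adjusted p = 1.11e-06 by limma). The highest values, 2049 and 2061, were the 2 mutants whose columns carry the library code L146, a mark in some column names whose meaning the labels do not give, and the 3 mutants without a code ranged from 879 to 1370. Within the uncoded libraries the mean log2 difference was 3.66 and within the coded ones 4.92.

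In Alk1 mutants Pgf was 696, 885, 1302, 1148 and 1045, against 93.8, 95.6, 84.7, 87.6 and 98.2 in wild types. The groups were again far apart, and the log2 fold change was 3.41 ± 0.15 (adjusted p = 8.13e-08 by limma). In Eng mutants Pgf was 178, 113, 136, 92.0 and 115, against 121, 87.3, 101.4, 113 and 81.3 in wild types. These groups overlapped, and the log2 fold change was 0.31 ± 0.19 with a 95% interval from -0.10 to 0.71 (adjusted p = 0.287 by limma). In IgG mutants Pgf was 482, 678 and 905, against 77.6, 85.1 and 92.4 in wild types. All IgG mutants lay above all IgG wild types, with a log2 fold change of 2.94 ± 0.22 (adjusted p = 0.00179 by limma).

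**Figure D3:**
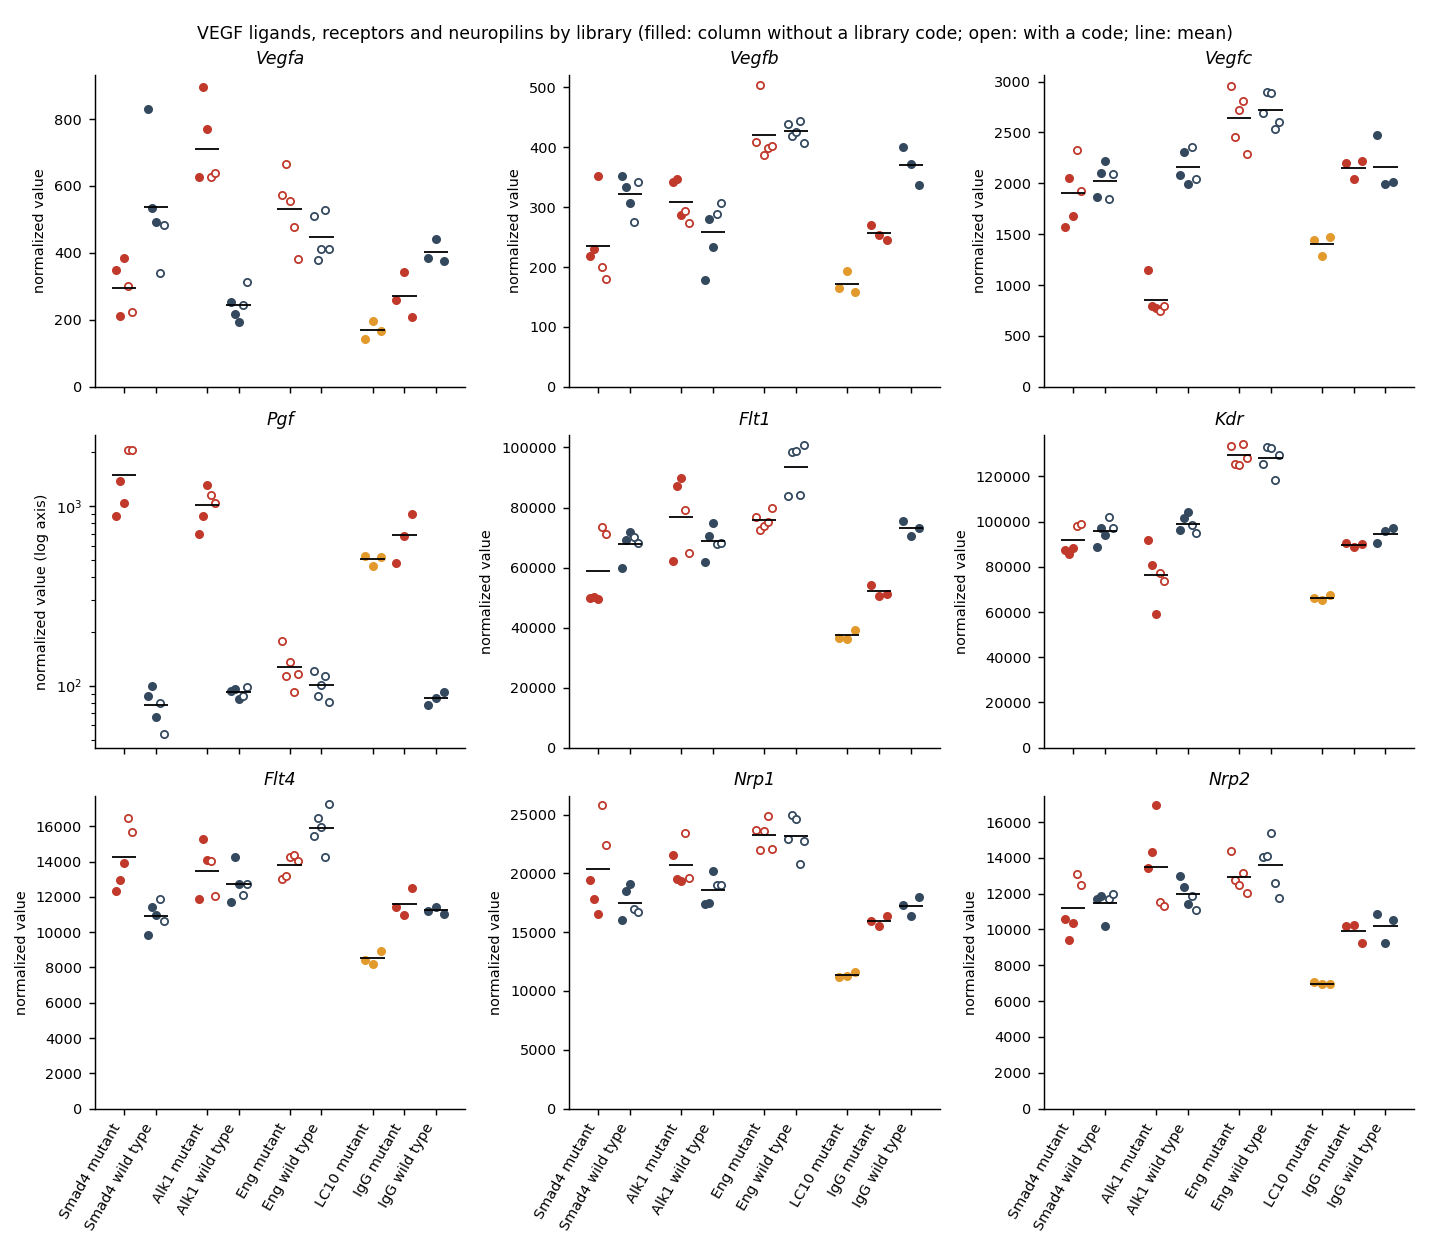
Normalized values of the 9 genes, 1 point per library and a line at each group's mean (Pgf on a log axis, the others from 0). Filled points are columns without a library code and open points columns with one, and LC10 is shown as deposited. Pgf separates mutants from wild types in the Smad4, Alk1 and IgG cohorts, Vegfc does so in the Alk1 cohort alone, and the 3 uncoded Smad4 mutants sit lower in Flt1 than the coded ones.

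Vegfa encodes VEGF-A, the main ligand of VEGFR2 (chr17:46016993-46032369, minus strand). It was lower in Smad4 mutants and higher in Alk1 mutants. In Alk1 mutants it was 628, 895, 770, 626 and 638, against 254, 217, 194, 246 and 313 in wild types. Every mutant had at least 626 and no wild type more than 313. The log2 fold change was 1.53 ± 0.14, a 2.9-fold higher level (adjusted p = 9.59e-06 by limma), and the mean log2 difference was 1.77 in uncoded and 1.18 in coded libraries. Among the astrocyte, neuron and choroid plexus markers, which name cells known to make VEGF-A, 2 neuron markers were called lower in Alk1 mutants and none higher. Of other lists, 2 of 4 lymphatic endothelial markers were called higher in Alk1 mutants. Called lower were 3 of 4 smooth muscle, 2 of 8 pericyte and 4 of 4 erythroid markers tested. The part of these markers in the rise of Vegfa was not tested.

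In Smad4 mutants Vegfa was 349, 212, 385, 300 and 225, against 831, 533, 492, 339 and 485 in wild types. The groups overlapped, since wild type 4 lay below mutants 1 and 3. The log2 fold change was -0.84 ± 0.23 (adjusted p = 0.0196 by limma), with mean log2 differences of -0.97 in uncoded and -0.64 in coded libraries. Some markers of other cells were also lower. The summed choroid plexus markers ran from 3996 to 26490 in mutants against 29740 to 146200 in wild types. The wild type with the highest Vegfa also had the highest marker sum. Wild type 5, with the lowest wild-type sum, had a Vegfa of 485, above the 339 of wild type 4, whose sum was 33890. Astrocyte markers ran from 7868 to 21430 in mutants against 13690 to 34890 in wild types, with 2 of 8 called lower. With the level of choroid plexus markers as a covariate, an alternative chosen after seeing the data, the log2 fold change of Vegfa was -0.27 (adjusted p = 0.484 by limma), and with the level of glial and neuronal markers it was -0.35 (adjusted p = 0.341). The markers of both covariates ran lower in mutants, and the choroid plexus sums did not overlap between genotypes. Neither covariate can thus be cleanly told apart from genotype.

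**Figure D4:**
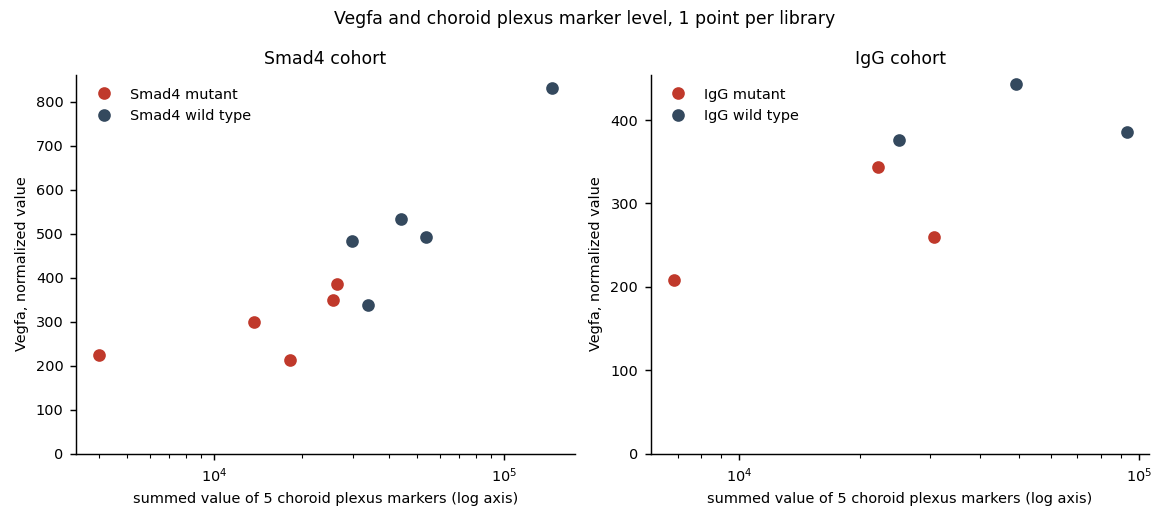
Vegfa, as normalized value, against the summed value of 5 choroid plexus markers (log axis), 1 point per library, in the Smad4 cohort (5 mutants, 5 wild types) and the IgG cohort (3 and 3). In the Smad4 cohort the mutants lie to the lower left, with marker sums up to 26490 against at least 29740 in wild types.

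In Eng mutants Vegfa was 573, 667, 556, 476 and 382, against 509, 379, 413, 528 and 412 in wild types, which overlapped (log2 fold change 0.23 ± 0.14, 95% interval -0.09 to 0.55, adjusted p = 0.308 by limma). In IgG mutants it was 260, 344 and 209, against 385, 443 and 376 in wild types. All 3 IgG mutants lay below all 3 wild types, but the log2 fold change of -0.59 ± 0.18 missed the threshold (adjusted p = 0.0614 by limma). Choroid plexus markers ran from 6839 to 30590 in IgG mutants against 25090 to 92890 in IgG wild types, and none of the 5 was called. IgG wild type 1 had the highest marker sum, with a Vegfa of 385. IgG wild type 2 had the highest Vegfa, 443, at a marker sum of 49030. IgG mutant 3 had both the lowest marker sum, 6839, and the lowest Vegfa, 209. Over 9 alternative limma fits, marker covariates among them, the log2 fold change of Vegfa in IgG mutants ran from -0.62 to -0.389. The adjusted p ran from 0.0377 to 0.422 in these fits.

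Vegfb encodes VEGF-B, a ligand of VEGFR1 (chr19:6982473-6987651, minus strand). It fell slightly in Smad4 mutants, at 218, 230, 352, 201 and 179, against 352, 333, 307, 276 and 343 in wild types. Mutant 3 was level with the highest wild type and the other 4 lay below all wild types. The log2 fold change was -0.48 ± 0.17 (adjusted p = 0.0469 by limma), and the call was lost in 8 of 10 fits that each left out 1 library, kept only without wild type 4 or mutant 3, with adjusted p from 0.00243 to 0.106. With glial and neuronal markers as a covariate, which cannot be cleanly told apart from genotype there, the value was -0.10 (adjusted p = 0.712). In IgG mutants Vegfb was 270, 254 and 245, against 401, 373 and 336 in wild types. The groups did not overlap (log2 fold change -0.52 ± 0.11, adjusted p = 0.0236 by limma), though the call was lost in 4 of 6 fits without 1 library, namely without IgG wild type 1 or 2 or mutant 2 or 3. In Alk1 mutants Vegfb averaged 309 ± 33 against 258 ± 52 in wild types, and in Eng mutants 420 ± 48 against 427 ± 15 (SD, n = 5 each), with neither called.

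Vegfc encodes VEGF-C, the ligand of VEGFR3 (chr8:54077606-54187096, plus strand). It fell in Alk1 mutants. Its values there were 1151, 796, 775, 743 and 795, against 2077, 2303, 1997, 2360 and 2043 in wild types. Mutant 1 was the highest of its group and still far below the lowest wild type, and the other 4 mutants lay within 743 to 796. The log2 fold change was -1.35 ± 0.11, or 0.391 of the wild-type level (adjusted p = 4.28e-06 by limma). In the other cohorts the groups overlapped, with 1567 to 2328 in Smad4 mutants against 1844 to 2215 in wild types, 2286 to 2958 in Eng mutants against 2537 to 2900, and 2038 to 2215 in IgG mutants against 1997 to 2472. Their log2 fold changes were -0.09 ± 0.10, -0.05 ± 0.07 and 0.00 ± 0.09. Smooth muscle markers summed to 867.6 to 1577 in Alk1 mutants against 1906 to 2390 in wild types, with 3 of 4 tested called lower, and their part in the fall of Vegfc was not tested. The Vegfa value was 0.546 to 1.13 times the Vegfc value in Alk1 mutants, against 0.0944 to 0.153 times in wild types.

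Flt1 encodes VEGFR1 (chr5:147561604-147726011, minus strand). It fell in Eng and in IgG mutants. In Eng mutants it was 76770, 72590, 73930, 75320 and 80000, against 83980, 98620, 98930, 84320 and 100800 in wild types. The highest mutant was below the lowest wild type, with a log2 fold change of -0.30 ± 0.06 (adjusted p = 0.00575 by limma), or -0.16 with quantile normalization (adjusted p = 0.015). Of the 8 endothelial markers, Cldn5, Tie1 and Ly6c1 were called lower in Eng mutants, at -0.18, -0.18 and -0.30. The other 5 were not called, among them Cdh5 at 0.10, and the median of all 8 was -0.12. Erythroid markers summed to 18120 to 31960 in Eng mutants against 26990 to 48290 in wild types, and the part of either list in the fall of Flt1 was not tested. In IgG mutants Flt1 was 54270, 50620 and 51290, against 75420, 70460 and 73220 in wild types. These groups too did not overlap, with a log2 fold change of -0.49 ± 0.07 (adjusted p = 0.00699 by limma), though with choroid plexus markers as a covariate it was -0.45 (adjusted p = 0.0712). In the IgG mutants 4 of 8 pericyte markers (sums of 37410 to 72050 in mutants against 74880 to 103900 in wild types) and 4 of 6 microglia markers (8621 to 13020 in mutants against 14110 to 27850 in wild types) were called lower, and their part in the fall of Flt1 was not tested.

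In untreated Smad4 mutants Flt1 split by the library code. The 3 uncoded mutants had 50000, 50140 and 49560 and the 2 coded ones 73420 and 71300, against 59770 to 71910 in all 5 wild types. The uncoded mutants lay below every wild type and 1 coded mutant lay above every wild type. Over all 10 libraries the log2 fold change was -0.23 ± 0.13 (adjusted p = 0.192 by limma). In the 6 uncoded libraries alone it was -0.42 ± 0.09 (adjusted p = 0.0157), and in the 4 coded ones the mean log2 difference was 0.07. The call was also made with scaling by library totals, at -0.31 (adjusted p = 0.0388), with quantile normalization, at -0.28 (adjusted p = 0.0364), and with glial and neuronal markers as a covariate, at -0.54 (adjusted p = 0.00234). In Alk1 mutants Flt1 was 62350 to 89800, against 61950 to 74890 in wild types, and was not called (0.15 ± 0.11), though quantile normalization called it higher, at 0.22 (adjusted p = 0.0351).

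Kdr encodes VEGFR2 (chr5:75932827-75978458, minus strand). It was called lower in Alk1 mutants, at 91790, 80670, 59330, 77430 and 73810, against 96260, 101400, 104200, 98720 and 94960 in wild types. All mutants lay below all wild types, mutant 3 lowest. The log2 fold change was -0.39 ± 0.11 (adjusted p = 0.0143 by limma), and it was -0.40 in uncoded and -0.36 in coded libraries. The call was lost with quantile normalization, at -0.29 (adjusted p = 0.128), and with the 6 uncoded libraries alone (adjusted p = 0.143). Kdr was 85880 to 98960 in Smad4 mutants against 88760 to 102000 in wild types, 125000 to 134400 in Eng mutants against 118600 to 133200, and 88590 to 90400 in IgG mutants against 90330 to 97320, with log2 fold changes of -0.06 ± 0.07, 0.02 ± 0.05 and -0.07 ± 0.07. Quantile normalization called Kdr higher in Eng mutants, at 0.23 (adjusted p = 0.000957).

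The ratio of the Kdr to the Flt1 value within a library, RNA signals not adjusted for length, is given without a test. It was 1.60 to 1.78 in Eng mutants against 1.29 to 1.5 in Eng wild types, and 1.67 to 1.76 in IgG mutants against 1.20 to 1.36 in IgG wild types. In both cohorts every mutant lay above every wild type, where 16.5% and 41.0% of single genes had groups that did not overlap. In Alk1 mutants it was 1.47, 0.926, 0.661, 0.976 and 1.14, against 1.39 to 1.55 in wild types, with 4 of 5 mutants below all wild types. Smad4 mutants had 1.75, 1.71 and 1.78 in the uncoded and 1.34 and 1.39 in the coded libraries, against 1.31 to 1.49 in wild types. A ratio alone does not show which of the 2 receptors moved. Before any alternative was applied, limma called Flt1 lower and not Kdr in Eng and IgG mutants. It called Kdr lower and not Flt1 in Alk1 mutants.

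**Figure D5:**
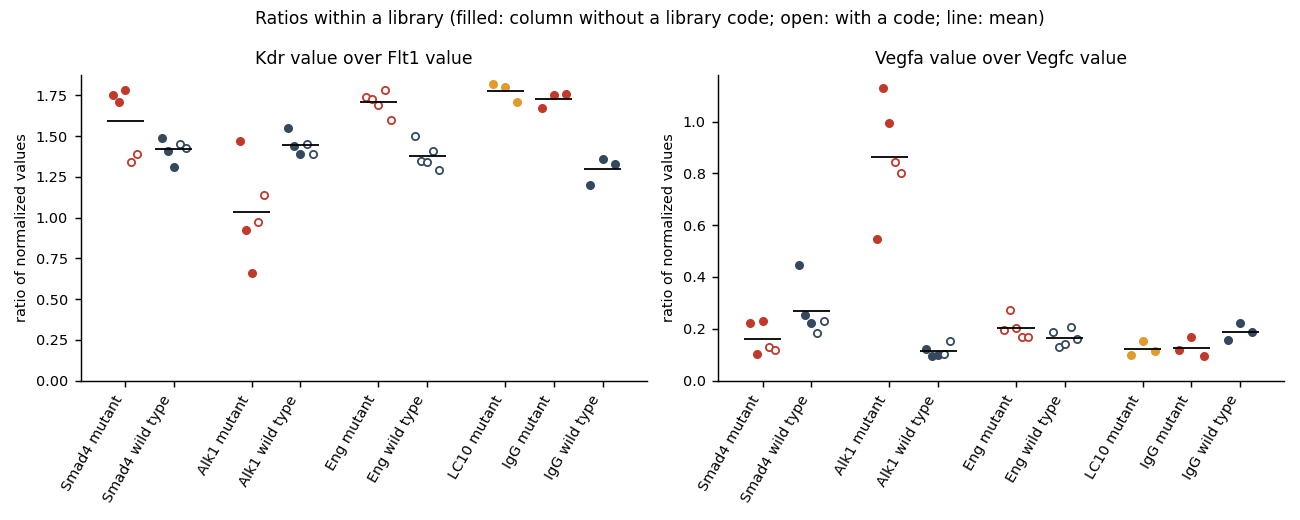
Ratio of the Kdr to the Flt1 value and of the Vegfa to the Vegfc value within each library (both axes from 0), with a line at each group's mean and open points for columns with a library code. Kdr over Flt1 is 1.60 to 1.78 in Eng mutants against 1.29 to 1.5 in wild types and runs down to 0.661 in Alk1 mutants, and Vegfa over Vegfc stands apart in Alk1 mutants, at 0.546 to 1.13.

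Flt4 encodes VEGFR3 (chr11:49609263-49652739, plus strand). It rose in Smad4 mutants and fell in Eng mutants. In Smad4 mutants it was 12330, 12970, 13900, 16460 and 15680, against 9828, 11410, 10950, 11910 and 10640 in wild types. All mutants lay above all wild types, with a log2 fold change of 0.38 ± 0.09 (adjusted p = 0.00719 by limma) and mean log2 differences of 0.29 in uncoded and 0.51 in coded libraries. With glial and neuronal markers as a covariate the value was 0.19 (adjusted p = 0.13), and with choroid plexus markers 0.20 (adjusted p = 0.19). These covariates cannot be cleanly told apart from genotype in the Smad4 cohort. In Eng mutants Flt4 was 13030, 13190, 14260, 14390 and 14050, against 15470, 16490, 15960, 14290 and 17260 in wild types. In the Eng cohort only wild type 4 fell within the mutants' range, and the log2 fold change of Flt4 was -0.20 ± 0.05 (adjusted p = 0.0135 by limma). Of the 8 endothelial markers 3 were called lower there (Cldn5, Tie1 and Ly6c1, at -0.18, -0.18 and -0.30) and 5 were not called. Their median was -0.12, and their part in the fall of Flt4 was not tested. The 4 lymphatic endothelial markers, from cells that also express Flt4, summed to 771.3 to 3117 in Smad4 mutants against 744.2 to 3417 in wild types and to 1451 to 4202 in Eng mutants against 1994 to 4621, with 1 called lower in Smad4 and none in Eng mutants. In the Alk1 cohort they summed to 1372 to 8139 in mutants against 1125 to 3505 in wild types, with 2 called higher. In IgG mutants 1 was called lower. The part of these markers in the Flt4 values was not tested. In Alk1 mutants Flt4 was 11910 to 15290 against 11740 to 14270 in wild types, and in IgG mutants 10950 to 12490 against 11050 to 11430, with log2 fold changes of 0.08 ± 0.08 and 0.05 ± 0.06.

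Nrp1 (chr8:128358604-128503363, plus strand) and Nrp2 (chr1:62703285-62818695, plus strand) encode the neuropilins, and neither was called in any cohort, except that quantile normalization called Nrp1 lower in IgG mutants, at -0.19 (adjusted p = 0.0475 by limma). Nrp1 was 19400, 17790 and 16510 in uncoded and 25830 and 22380 in coded Smad4 mutants, against 16020 to 19140 in wild types. The coded mutants lay above every wild type and the uncoded ones mostly among them, so the log2 fold change of 0.21 ± 0.11 (adjusted p = 0.173 by limma) joins 0.00 in uncoded and 0.51 in coded libraries. In IgG mutants Nrp1 was 15530 to 16360, against 16360 to 18000 in wild types, touching at this rounding, with -0.11 ± 0.05 (adjusted p = 0.189). In Alk1 and Eng mutants the log2 fold changes of Nrp1 were 0.15 ± 0.07 and 0.00 ± 0.05, with 95% intervals from -0.01 to 0.31 and from -0.11 to 0.12. Nrp2 had log2 fold changes of -0.05 ± 0.09, 0.16 ± 0.10, -0.06 ± 0.07 and -0.04 ± 0.07 in the Smad4, Alk1, Eng and IgG cohorts, and its intervals reached no further than -0.24 or 0.39. Among Alk1 mutants Nrp2 varied widely, from 11320 to 16940, with the 2 coded libraries lowest. A microRNA gene, Mir1903, shares 80 exon bases with Nrp1, and no other exon overlap was found among the 9 genes.

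The genotype effects were then compared between cohorts, in 1 limma fit of the 30 untreated libraries. Marker covariates, with which the calls of Vegfa and Flt4 in Smad4 mutants were lost, were fitted within cohorts only and not for these differences. Vegfa differed in all 3 pairs. The Smad4 effect minus the Alk1 effect was -2.37 ± 0.27 (adjusted p = 4.16e-07), the Smad4 minus the Eng effect -1.07 ± 0.27 (adjusted p = 0.0129) and the Alk1 minus the Eng effect 1.30 ± 0.27 (adjusted p = 0.00153). Pgf differed from Eng in both cases, at 3.86 ± 0.30 for Smad4 (adjusted p = 4.34e-10) and 3.10 ± 0.30 for Alk1 (adjusted p = 6.33e-08). Between Smad4 and Alk1 the Pgf difference of 0.76 ± 0.30 was not called (95% interval 0.14 to 1.37, adjusted p = 0.0855). It was called with quantile normalization, at 0.93 (adjusted p = 0.03), and without Smad4 mutant 1 (adjusted p = 0.0265) or mutant 3 (adjusted p = 0.0467). Vegfc separated Alk1 from both others, at 1.26 ± 0.15 for Smad4 minus Alk1 (adjusted p = 4.83e-07) and -1.31 ± 0.15 for Alk1 minus Eng (adjusted p = 5.12e-07).

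Among the receptors, Kdr differed for Alk1 minus Eng, at -0.40 ± 0.11 (adjusted p = 0.0125), and for Smad4 minus Alk1, at 0.32 ± 0.11 (adjusted p = 0.0429), a call lost in 12 of 20 fits without 1 library. Flt4 differed for Smad4 minus Eng, at 0.58 ± 0.11 (adjusted p = 0.000815), where it rose in one and fell in the other. Vegfb differed for Smad4 minus Alk1, at -0.76 ± 0.20 (adjusted p = 0.00883). The fall of Flt1 in Eng mutants did not pass the threshold against the Alk1 effect (0.44 ± 0.15, adjusted p = 0.0518 by limma), where scaling by totals (0.35, adjusted p = 0.0399) and quantile normalization (0.38, adjusted p = 0.0101) called it, nor against the Smad4 effect (0.07 ± 0.15, adjusted p = 0.821). The tally of calls was 4 of 9 for Smad4 minus Alk1, 3 for Smad4 minus Eng and 4 for Alk1 minus Eng, beside 15.9%, 8.04% and 14.5% of all genes. Scaling by totals moved the median difference of all genes to -0.12 for Smad4 minus Eng and -0.11 for Alk1 minus Eng and kept the direction of all 11 calls, with Kdr for Smad4 minus Alk1 no longer called (adjusted p = 0.0596). It added calls for Smad4 minus Alk1 of Flt1, at -0.38 (adjusted p = 0.0278), and Flt4, at 0.29 (adjusted p = 0.0189). Quantile normalization also called Flt1, at -0.50 (adjusted p = 0.000848), and Flt4, at 0.30 (adjusted p = 0.0151), and not Kdr, at 0.15 (adjusted p = 0.473), for Smad4 minus Alk1.

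The Smad4 effect under IgG was set against the untreated one in a limma fit of 16 libraries. None of the 9 genes was called, beside 0.00688% of all genes, or 1 of 14535. At an unadjusted p under 0.05 there were 954 genes, or 6.56%, with Pgf and Flt4 among them. Pgf had the largest difference, at -1.22 ± 0.40 with a 95% interval from -2.06 to -0.38 (adjusted p = 0.695). Flt4 differed by -0.33 ± 0.12 (adjusted p = 0.702) and Vegfa by 0.25 ± 0.36 (adjusted p = 0.956). These intervals are wide, so the effects were not shown to be alike. No IgG library carries a code, while each untreated Smad4 group holds 2 coded libraries. In the untreated cohort the mean log2 difference of Pgf was 3.66 in uncoded and 4.92 in coded libraries. For Flt4 it was 0.29 and 0.51, so the library code is mixed into these comparisons.

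Values of the LC10 mutants, rescaled to match the IgG libraries, are given without a test, since antibody and table cannot be told apart. Pgf was 686, 604 and 670 in LC10 mutants, against 481, 678 and 904 in IgG mutants and 77.9 to 92.1 in IgG wild types. The LC10 values lay within the IgG mutants and far above the wild types, at 7.68 times the wild-type mean. Vegfc was 1868, 1674 and 1893 in LC10 mutants against 2195, 2038 and 2212 in IgG mutants, with no overlap and a ratio of means of 0.843. Kdr, Nrp1 and Nrp2 also lay below all IgG mutants, with ratios of 0.957, 0.921 and 0.911, and 4 of 9 genes thus did not overlap, beside 18.4% of all genes. Vegfa was 187 to 256 in LC10 mutants against 208 to 344 in IgG mutants, Flt1 47130 to 50710 against 50630 to 54240, Vegfb 204 to 251 against 245 to 270, and Flt4 10670 to 11530 against 10960 to 12470, and all of these overlapped. As deposited, without scaling, 8 of 9 genes lay below all IgG mutants. Pericyte markers summed to 18510 to 28680 as deposited in LC10 mutants against 37410 to 72050 in IgG mutants, and their part in these values was not tested. These sums were not rescaled. The scale factors were 0.7709 to 0.7757 in LC10 and 0.9958 to 1.003 in IgG libraries, so the scale of the deposited values makes up part of this gap.

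Other genes of the pathway were read from lists chosen with earlier results known, and each count stands beside 33.0%, 33.2%, 21.5% and 17.8% of all genes called in the Smad4, Alk1, Eng and IgG cohorts. Of 19 VEGF-induced genes, 4 rose and 3 fell in Smad4 mutants, 9 rose and 1 fell in Alk1 mutants, 6 rose and 1 fell in Eng mutants, and 2 rose and 2 fell in IgG mutants, and the 7 of 19 in Smad4 and 4 of 19 in IgG mutants lay near the shares of all genes. Apln, a tip cell peptide, and Angpt2, the antagonist ligand of Tie2, rose in all 4. Apln had log2 fold changes of 1.57, 1.46, 1.27 and 1.12, and Angpt2 of 2.61, 3.03, 1.36 and 0.88, in the Smad4, Alk1, Eng and IgG cohorts. Esm1, a secreted proteoglycan of tip cells, rose by 1.20, 0.82 and 0.73 on the log2 scale in Smad4, Alk1 and Eng mutants. Ptgs2, a prostaglandin synthase, fell by 1.66 in Smad4 mutants and fell by 1.61 in IgG mutants. Plaur, the urokinase receptor, and Stc1, a secreted glycoprotein, rose by 1.86 and 2.57 in Alk1 mutants, and Plaur also by 1.02 in Smad4 and 0.31 in Eng mutants. The median log2 fold change of the list was 0.06, 0.83, 0.06 and 0.05.

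Among 8 genes of the HIF pathway, which drives Vegfa transcription in low oxygen, 3 rose and 1 fell in Smad4 mutants, 4 rose and 1 fell in Alk1 mutants, 1 rose and 1 fell in Eng mutants and 1 rose in IgG mutants, of which the Eng and IgG counts lay near or below 21.5% and 17.8% of all genes. Egln3, a HIF prolyl hydroxylase that is itself a HIF target, was 817 ± 179 in Alk1 mutants against 51.4 ± 10.2 in wild types, with a log2 fold change of 3.93 (adjusted p = 1.06e-07 by limma). It rose by 1.91 in Smad4 mutants, where Vegfa was called lower, and by 0.99 in Eng mutants, where Vegfa was not called. Hif1a, a HIF alpha subunit, rose by 0.47, 0.70 and 0.28 in Smad4, Alk1 and IgG mutants, and Epas1, the other main alpha subunit, fell by 0.46, 0.29 and 0.19 in Smad4, Alk1 and Eng mutants. Hif3a rose by 4.01 in Alk1 mutants, at 3154 ± 2765 against 140 ± 65.

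Of 19 regulators of VEGF receptors, 6 rose and 4 fell in Smad4, 8 rose and 4 fell in Alk1, 2 rose and 5 fell in Eng and 1 rose and 4 fell in IgG mutants, beside 33.0%, 33.2%, 21.5% and 17.8% of all genes. Spry1, a feedback inhibitor of receptor tyrosine kinases, rose by 1.40 in Smad4 and 1.28 in Alk1 mutants. Efnb2, the ephrin that helps VEGFR2 and VEGFR3 into the cell, rose by 0.34 in Smad4 mutants, fell by 0.73 in Alk1 mutants and fell by 0.29 in Eng mutants. Dab2, an endocytic adaptor, fell by 0.42, 0.48 and 0.25 in Smad4, Alk1 and IgG mutants, and Unc5b, a netrin receptor of endothelial cells, fell by 0.37 in Alk1 and 0.33 in Eng mutants. Ptprb, the phosphatase that restrains VEGFR2, fell by 0.22 in Eng mutants.

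Of 32 VEGF signal transducers tested, 12 rose and 3 fell in Smad4, 9 rose and 3 fell in Alk1, 2 rose and 2 fell in Eng and 4 rose and 2 fell in IgG mutants, where the Eng count lay below 21.5% and the IgG count near 17.8% of all genes. Src, a kinase downstream of VEGFR2, fell by 0.38, 0.60 and 0.30 in Smad4, Alk1 and IgG mutants. Nfatc1, a calcium-responsive factor, rose by 0.39 in Smad4 and 0.35 in Eng mutants. The protease and partner list of VEGF-C and VEGF-D held 6 genes, of which 1 rose and 2 fell in Smad4 mutants, 1 fell in Alk1 mutants, none was called in Eng mutants and 1 rose in IgG mutants. Pcsk5, a convertase that cleaves VEGF-C precursors, fell by 1.21 in Alk1 mutants, at 519 ± 93 against 1190 ± 98, together with Vegfc, and by 0.56 in Smad4 mutants. Vegfd, the other ligand of VEGFR3, was called in no cohort and averaged 25.4 to 54.8 in the mutant groups and 37.9 to 49.7 in the wild-type groups.

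Neuropilin ligands and partners were read in the same way. Of 7 class 3 semaphorins 1 rose and 1 fell in Smad4, 2 rose and 2 fell in Alk1, 1 rose and 2 fell in Eng and 1 rose and 1 fell in IgG mutants, few genes to read against the shares over all genes given above. Sema3c fell by 1.31, 1.25, 0.82 and 1.23 in the Smad4, Alk1, Eng and IgG cohorts, and Sema3f, a ligand of Nrp2, rose by 0.97, 1.38, 0.47 and 0.42. Sema3g fell by 1.00 in Alk1 mutants and by 0.27 in Eng mutants. Of 5 plexins, the signalling partners of neuropilins, 3 rose and 2 fell in Smad4, 2 rose and 3 fell in Alk1, 2 rose in Eng and 1 rose in IgG mutants, beside 33.0%, 33.2%, 21.5% and 17.8% of all genes. Plxnd1 rose by 0.66, 0.53 and 0.42 in Smad4, Alk1 and IgG mutants, and Plxna4 fell by 2.00 in Alk1 and 0.26 in Smad4 mutants.

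Over the 30 untreated libraries, after each table's mean was taken away, the genes whose log2 values varied most like a member were listed, as a description over libraries that share tables and genotypes. Pgf varied most like Tnfaip8l1 (r = 0.972), N4bp3 (r = 0.968) and Atp6v0a2 (r = 0.958), and Vegfc like Dkk2 (r = 0.936), Slc6a6 (r = 0.930) and Plxna4 (r = 0.916). Without the group means Tnfaip8l1, N4bp3 and Atp6v0a2 kept r = 0.501, 0.499 and 0.628 with Pgf. Dkk2 and Slc6a6 kept r = 0.636 and 0.487 with Vegfc, and Plxna4 kept r = 0.08. The likeness of Plxna4 and Vegfc thus lay between groups. Vegfa varied most like Vldlr (r = 0.910, and 0.887 without the group means), F3 (0.843 and 0.631) and Bmper (0.842 and 0.464). Vegfb varied most like Arhgap33, Nmnat2 and Grin1 (r = 0.842, 0.825 and 0.803), of which Nmnat2 and Grin1 are known from neurons. Flt1 varied most like Mfhas1, Mtmr6 and Ivns1abp, Kdr like Invs, Ccdc71l and Sufu, Flt4 like Plod1, Notch4 and Micall1, Nrp1 like Rabep1 and Hspa13, and Nrp2 like Sox7, Mast4 and Rasal2, with r from 0.762 to 0.905.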

How the data were processed

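Messenger RNA libraries of PECAM-selected brain endothelial cells were analysed, 39 in 9 groups. The deposited tables, 1 per cohort and antibody, hold a normalized signal per gene, although the labels call it raw counts, and the submitters' processing notes name mm10. The values are not whole, so no count test was used, although the plan allowed for counts. A step was fitted to the low values of each library. Of these low values 38.8 to 80.9% lay within 0.05 steps of a multiple of it, and of all values 14.6 to 24.5%. An error in the step grows with the value, so the second share cannot show whether the values are scaled counts. The sources used here name neither the aligner nor how reads were counted and normalized. Each table had 24972 rows, and 26 were dropped because their names were dates or occurred again. There are 3 columns tied to no sample in the labels, and these were not used. In the untreated cohorts a column names its group and not its sample, so replicate numbers there are file order. Some columns carry a library code (L146, L219, L210 or L216) whose meaning is not given.

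Values were taken as log2 of the value plus 2, which understates changes of low genes. The filter kept genes that reached 20 in 5 or more libraries (3 or more for IgG). The two-sided test was limma's (version 3.58.1, R 4.3.3), with its trend option on intensity, within each table, and genes were called at a Benjamini-Hochberg adjusted p under 0.05 over all genes tested. The procedure was tested on simulated data. Differences between genotype effects came from joint fits, and LC10 values were scaled by the median of ratios over 9 libraries. Fold changes carry SE, means SD. Gene coordinates and exon lengths are GENCODE M21 (GRCm38, the same assembly as mm10), which 98.1% of symbols matched. Read depth is not stated, and no counting interval is given. Value sums divided by the fitted step, which stand for depth only if the values are scaled counts, ran from 11.0M to 30.8M. In the Smad4 cohort they were 11.0M to 15.3M in uncoded and 20.9M to 27.7M in coded libraries. Alternatives were pseudocounts 1 and 10, no filter, scaling by totals, quantile normalization, marker levels as covariates, the library code, single libraries left out, LC10 added to the IgG fit and the replicate number as a block for IgG. Named genes are the 9 members, the targeted genes, up to 4 called genes per list and comparison with the smallest adjusted p (the same genes are followed across cohorts) and the 3 most alike per member, of which 1 is not reported here. The members and lists were chosen with earlier results of these data known.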

Additional observations from a re-analysis of the deposited data

Results flagged for a closer look

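Of 54 groups of 5 values looked at, 3 held a value far from the other 4, and chance gives about 1 in 20. Vegfb was 504.3 in Eng mutant 2, against 387 to 409 in the other Eng mutants, and that library also had the highest astrocyte marker sum of the Eng cohort, at 28860. Vegfc was 1151 in Alk1 mutant 1, against 743 to 796 in the other Alk1 mutants. Nrp2 was 10210 in Smad4 wild type 3, against 11680 to 11970 in the other Smad4 wild types.

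Of 36 differences between genotype effects that were tested by limma, 11 were called, none of them for IgG minus untreated. Over all genes 15.9% were called for Smad4 minus Alk1, 8.04% for Smad4 minus Eng and 14.5% for Alk1 minus Eng. For IgG minus untreated it was 0.00688%. The called members for Smad4 minus Alk1 were Vegfa at -2.37, Vegfb at -0.76, Vegfc at 1.26 and Kdr at 0.32 on the log2 scale. For Smad4 minus Eng they were Vegfa at -1.07, Pgf at 3.86 and Flt4 at 0.58. For Alk1 minus Eng they were Vegfa at 1.30, Vegfc at -1.31, Pgf at 3.10 and Kdr at -0.40. Age and tamoxifen dose and day cannot be told apart from the gene where Alk1 is one side.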

How the results depend on the processing

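Of 1869 alternative values, 1702 kept the direction and the side of the threshold (or stayed within the range set for counts) and 167 did not. The calls of Pgf in the Smad4, Alk1 and IgG cohorts, of Vegfa and Vegfc in the Alk1 cohort and of Flt1 and Flt4 in the Eng cohort held in every limma fit run. For the changes given here the cause was not tested.

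In the Smad4 cohort the glial and neuronal marker covariate left 2292 genes and 2 members called, and the choroid plexus covariate 1977 genes and 2 members, namely Pgf and Flt1 in both. Without either, 4620 genes were called. Both covariates follow genotype in that cohort and cannot be cleanly told apart from it. The uncoded libraries alone gave 2461 genes in the Smad4 cohort, where the call of Vegfb was lost (adjusted p = 0.263), and 2005 in the Alk1 cohort. Vegfb in Smad4 mutants was also lost with no filter (adjusted p = 0.0601) and with quantile normalization (adjusted p = 0.119). For IgG the first covariate left 790 genes, with Vegfb lost (adjusted p = 0.0569), and the second 126 genes and 1 member, Pgf. With LC10 added to the IgG fit Vegfa was called (adjusted p = 0.0426). The IgG minus untreated count was 0 with a pseudocount of 10. As deposited, 8 members of LC10 mutants lay apart from IgG mutants. Scaling by totals moved the share of calls that were higher from 52.1 to 37.2% in the Smad4 cohort, from 52.7 to 41.1% in the Alk1 cohort, from 51.7 to 33.8% for Smad4 minus Eng and from 53.7 to 38.7% for Alk1 minus Eng.

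Reversed values were small and uncalled. With the glial and neuronal covariate they were -0.0331 for Nrp1 in Smad4 mutants, and 0.00968, -0.00332 and -0.0126 for Vegfb, Kdr and Nrp1 in Eng mutants. With the choroid plexus covariate they were 0.0948, -0.00776 and 0.0353 for Vegfc, Flt4 and Nrp2 in IgG mutants. Quantile normalization gave -0.0647 for Flt4 in Alk1, -0.0138 for Nrp1 in Eng, and 0.0286 and -0.00678 for Kdr and Flt4 in IgG mutants, with -0.117 and -0.124 for Flt1 and Nrp2 in Smad4 minus Eng and 0.165 for Kdr in IgG minus untreated. Totals gave -0.0234 and -0.0782 for Flt1 and Nrp2 in Smad4 minus Eng, and 0.00735 and 0.0428 for Vegfb and Kdr in IgG minus untreated.

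With 1 library left out, the number of genes called ran from 471 (without IgG mutant 2) to 3073 (without IgG mutant 1) for IgG, from 802 (without Smad4 mutant 5) to 1817 (without Smad4 mutant 3) for Smad4 minus Eng, and from 0 to 4 for IgG minus untreated, with 4 without Smad4 wild type 3. IgG fits without 1 library hold a group of 2. Values that crossed 0 ran from -0.106 to 0.0124 for Nrp2 in Smad4 mutants. In Eng mutants they ran from -0.0873 to 0.00561 for Vegfc, -0.0114 to 0.0305 for Kdr and -0.0343 to 0.0307 for Nrp1. In IgG mutants they ran from -0.0542 to 0.0996 for Vegfc, -0.00713 to 0.0875 for Flt4 and -0.11 to 0.00698 for Nrp2. Smad4 minus Alk1 gave -0.0355 to 0.126 for Nrp1. Smad4 minus Eng gave -0.124 to 0.0189 for Vegfc, -0.0131 to 0.129 for Flt1 and -0.0417 to 0.077 for Nrp2. IgG minus untreated gave -0.132 to 0.11 for Vegfb, -0.0412 to 0.0189 for Kdr and -0.0628 to 0.0654 for Nrp2.

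IgG mutants and wild types share replicate numbers, but same-numbered libraries deviated together with r of 0.0608, 0.0282 and -0.073 only, so the numbers are not shown to pair them. With the replicate block 2451 genes and 4 members were called, Vegfa being the added one (-0.59, adjusted p = 0.0377). The numbers in the untreated column names could not be tied to those of the sample titles, so no block was fitted there.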
